A study of Drosophila melanogaster with 12 samples.

Results

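The regions described here are peaks of the transcription factor Scalloped (Sd) that lay apart from Nerfin-1 and from open chromatin in the central nervous system of Drosophila larvae. They were chosen by overlap alone: a peak of the authors' deposited Sd list entered when it shared not even 1 bp with any Nerfin-1 peak or any ATAC peak. This left 488 of 4064 distinct Sd peaks, or 12.01%, among 43207 distinct intervals in the Sd, Nerfin-1 and ATAC lists. Binding was profiled by targeted DamID in wandering larvae of the third instar, with 2 samples of Dam-Sd, 2 of Dam-Nerfin-1 and 2 of Dam alone. All 3 DamID genotypes carried w, tubGal80TS/+, GMR31H08-Gal4 and UAS-GFP, with a pUAST-LT3 transgene for Dam-Sd, Dam-Nerfin-1 or Dam at attP2, so profiling was limited to the cells that GMR31H08-Gal4 drives. The larvae developed from eggs laid at 25°C, spent 4 days at 18°C, where Gal80 blocks the driver, and were kept at 29°C for the last 24 h before dissection so that the transgenes were expressed. ATAC-seq (3 samples) and RNA-seq (3 samples, pooled from sorts of different days) came from GFP-positive cells carrying the reporter P[nerfin-1.GFP-NLS.SV-40], with iA added in its label, sorted from larvae of the same stage reared at 25°C. Binding is therefore compared with chromatin and RNA of cells chosen by this reporter, not by the DamID driver, and grown under another temperature regime.

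Sd is the fly member of the TEAD family of DNA-binding proteins and is best known as the partner through which the Hippo pathway coactivator Yorkie reaches growth genes. Nerfin-1 carries zinc fingers, acts in young neurons and keeps them from returning to a stem-cell state. In targeted DamID a bacterial adenine methylase fused to a protein marks GATC sites near which that protein comes, whereas ATAC-seq marks DNA that a transposase can reach. Of the marker lists, the RNA table of the sorted cells listed 15 of 16 pan-neuronal genes, 4 of 14 neuroblast genes, 3 of 15 glial genes, 2 of 11 hemocyte genes and 2 of 15 muscle genes. Counts over listed genes came to 43555895 in library S1, 44657928 in S2 and 57468071 in S3. Each library was scaled to a total of 1000000 over these genes, and RNA levels are given on that scale (CPM). The peak lists hold no height, score or replicate value. No spread between replicates could therefore be given for a peak, and the read depth behind these lists is unknown.

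The 488 peaks were short. Their lengths ran from 115 to 3451 bp with a median of 681 bp, and together they covered 373 kb of dm6. The median was 876 bp for the 868 Sd-only peaks in open chromatin, 839 bp for the 455 Sd peaks that met a Nerfin-1 peak but no ATAC peak, and 907 bp for the 407 Nerfin-1-only peaks outside open chromatin. A further 2253 Sd peaks overlapped both other lists and had a median of 1612 bp. Among the chosen peaks 160 were shorter than 500 bp and 35 were longer than 1500 bp. Since a longer interval has more chance to touch another list, length is tied to the choice of peaks and was not tested.

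**Figure D1:**
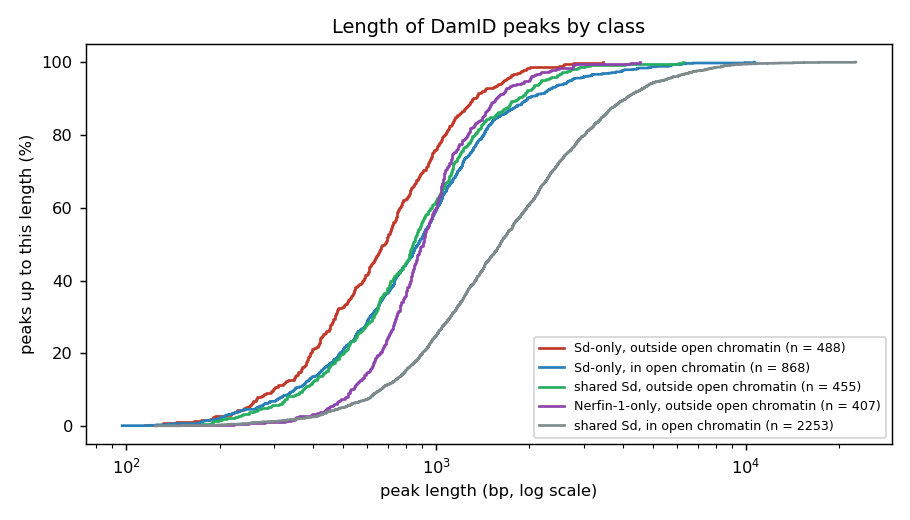
Cumulative share of peaks (percent) by peak length in bp (log axis) for Sd-only peaks outside open chromatin and the other classes of Sd and Nerfin-1 peaks. Sd-only peaks outside open chromatin had the lowest median, 681 bp, and Sd peaks shared with both other lists the highest, 1612 bp.

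Most of the chosen peaks lay within 1 kb of open chromatin without touching it, at a share close to that of shared peaks outside it. These gaps were not compared with those of intervals placed at random. The gap to the nearest ATAC peak had a median of 715 bp and quartiles of 270 and 1531 bp, and 292 of the 488 peaks (59.8%) lay within 1 kb of one. The median gap was 822 bp for shared peaks outside open chromatin and 1205 bp for Nerfin-1-only peaks outside it, of which 58.5% and 42.0% lay within 1 kb of an ATAC peak. Nerfin-1 peaks were farther off, with a median gap of 5758 bp, and 63 chosen peaks (12.9%) had one within 1 kb. The Nerfin-1 list is much the sparser, with 3649 distinct peaks against 35494 ATAC peaks, and the gaps were not adjusted for this. Only 2 peaks lay more than 5 kb from both an ATAC peak and a Nerfin-1 peak, whereas 176 lay more than 1 kb from both. At the boundary of the rule, a peak in Pkn, which encodes a protein kinase, entered with a gap of 1 bp to an ATAC peak. Peaks assigned to lncRNA:CR44586, CG15909 and the LIM homeobox gene Lim1 entered with gaps of 3 bp. Just outside it, peaks assigned to CG12470, mthl5 and Or59a had 1, 3 and 5 bp covered by an ATAC peak. On the Nerfin-1 side, the closest entries were assigned to CG14234 (57 bp), CG32845 (61 bp) and the pair Adgf-A and Adgf-A2 (73 bp). The Sd peaks just outside on that side, assigned to lncRNA:CR45483, lncRNA:CR43304 and snRNA:U1:82Eb, had 3 bp each covered by a Nerfin-1 peak.

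**Figure D2:**
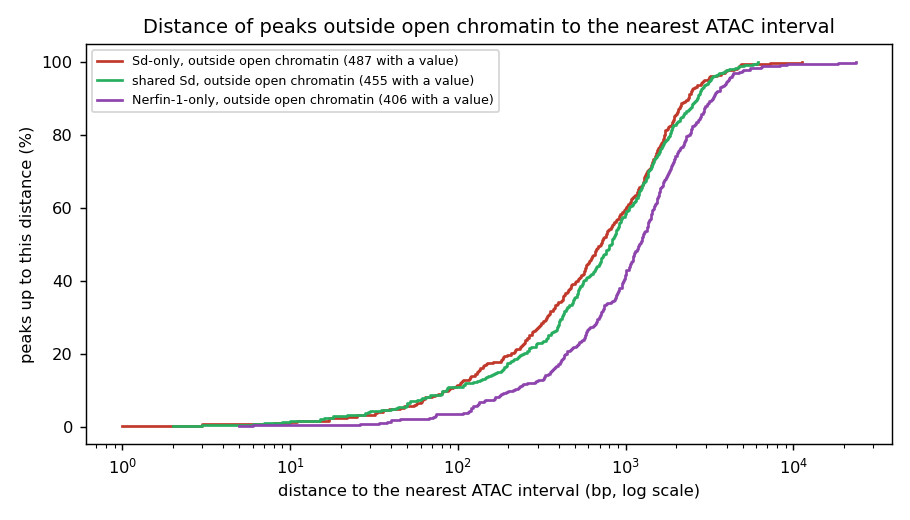
Cumulative share of peaks (percent) by distance to the nearest ATAC peak in bp (log axis), for the classes of peaks outside open chromatin. Of Sd-only peaks 59.8% lay within 1 kb of an ATAC peak, against 58.5% of shared peaks and 42.0% of Nerfin-1-only peaks.

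The peaks were spread over all arms, and few had another chosen peak within 5 kb. Their spacing was not compared with that of peaks placed at random. They made up 86 of 756 Sd peaks on 2L (11.4%), 100 of 825 on 2R (12.1%), 87 of 791 on 3L, 123 of 967 on 3R (12.7%) and 80 of 666 on X (12.01%). On the small chromosome 4 they made up 19.0% (11 of 58; Wilson 95% interval 10.9 to 30.9), an interval that overlaps those of all the large arms. One entry (1 of 1 Sd peak) lay on the mitochondrial genome, from 803 to 2005, where the ATAC list holds 0 intervals and no gene was assigned. The nearest other Sd peak of any class lay at a median of 7190 bp, with 50 chosen peaks having one within 1 kb. The nearest other chosen peak lay at a median of 67464 bp, and 20 peaks had one within 5 kb.

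The peaks farthest from open chromatin lay at few well-known genes. The 1 with the widest gap, 11312 bp, was assigned to the ribosomal RNA gene 5SrRNA:CR33425 (2R, 19739662 to 19740030) and lay 24794 bp from the nearest protein-coding gene. It was followed by peaks inside CG7029, assigned to Nepl14 (3R, 22762905 to 22763511, gap 7246 bp), and inside Tak1, a kinase of immune and stress signalling (X, 20518838 to 20519587, gap 4907 bp). Next came peaks inside Qtzl (2L, 11995952 to 11996245, gap 4841 bp) and CG31897 (2L, 8443758 to 8444381, gap 4788 bp). Of these 5 genes, Tak1 and Qtzl were listed in the RNA table.

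The longest peaks included sites in growth genes and in genes of developmental transcription factors. The longest, 3451 bp, lay inside rgr and was assigned to CG8642 (2R, 8605735 to 8609185), 3774 bp from an ATAC peak. The next, 2759 bp, lay inside CycE, which encodes Cyclin E, the partner of Cdk2 at entry to S phase (2L, 15741876 to 15744634), 875 bp from an ATAC peak and 390 bp from a Nerfin-1 peak. At tup, which encodes the fly Islet homeobox factor, a peak of 2585 bp lay inside the gene (2L, 18863001 to 18865585, assigned to mir-4946). A further one of 2496 bp lay 2852 bp beyond its end (2L, 18884113 to 18886608). A peak of 2005 bp lay inside kibra, an upstream activator of the Hippo pathway (3R, 14718059 to 14720063), 635 bp from an ATAC peak and 882 bp from a Nerfin-1 peak. One of 2016 bp was assigned to the pyruvate carrier gene Mpc1 and lay over an end of Xrp1 (3R, 18926236 to 18928251). A peak of 1968 bp at lncRNA:CR44716 lay 1415 bp from scyl, which encodes an inhibitor of TOR signalling (3L, 11248925 to 11250892). The remaining ones among the 15 longest, of 1846 to 2623 bp, were assigned to CG6414, lncRNA:CR44339, lncRNA:CR44698 with lncRNA:CR44699, rhea, babos, chn, lncRNA:CR32111 and CG44355. Of the 15, the tup, rhea and chn peaks had an assigned gene in the RNA table.

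The next comparison asked where the chosen peaks lay relative to genes. Of the 488, 358 (73.4%) overlapped a protein-coding gene, 283 (58.0%) lay inside one without touching its ends, 75 (15.4%) overlapped an end and 130 (26.6%) lay outside protein-coding genes. The gene table has no strand or exons, so an end can be a start or a stop of the gene, and introns, exons and UTRs were not analysed here. The chosen peaks met a gene end less often than Sd-only peaks in open chromatin did, 15.4% (75 of 488) against 31.5% (273 of 868), a difference of -16.1 percentage points (95% interval -20.4 to -11.5; two-sided Fisher's exact test, Benjamini-Hochberg adjusted over 12 tests, p = 3.53e-10). In each class of length the share was also lower: 8.75% against 12.8% up to 500 bp, 18.0% against 33.1% from 500 to 1000 bp, 22.0% against 41.7% from 1000 to 1500 bp, and 14.3% against 36.1% above that. With peaks of 500 to 1500 bp alone the difference was -17.2 points (adjusted p = 1.99e-06, Fisher's exact test). Where any peak within 1 kb also counted as overlapping, which left 176 Sd-only peaks outside open chromatin, the difference was -8.06 points and no longer passed (adjusted p = 0.149). Against shared peaks outside open chromatin, of which 18.7% met a gene end, the difference of -3.31 points had an interval of -8.14 to 1.49 and did not pass (adjusted p = 0.463, Fisher's exact test). With at least 50% of a peak covered counted as overlap, a wider set of 1194 peaks counted as Sd-only and outside open chromatin. This set takes in peaks that touched a Nerfin-1 or ATAC peak over less than 50% of their length, so it is not the chosen 488. For the wider set the difference from shared peaks was -12.8 points and passed (adjusted p = 5.26e-11, Fisher's exact test). Against Nerfin-1-only peaks outside open chromatin (21.9%) the difference was -6.50 points (adjusted p = 0.0449), but it did not pass with peaks of 500 to 1500 bp (-3.01 points, adjusted p = 0.788).

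Overlap with a gene body and position on X gave no call with 1 bp counted as overlap. Protein-coding genes were overlapped by 73.4% of the chosen peaks, against 74.9% of Sd-only peaks in open chromatin, 76.5% of shared peaks and 74.7% of Nerfin-1-only peaks outside it. The differences were -1.52 (95% interval -6.47 to 3.26), -3.12 (-8.62 to 2.43) and -1.33 (-7.04 to 4.47) points, with adjusted p of 0.851, 0.586 and 0.851 by Fisher's exact test. With at least 50% of a peak covered counted as overlap, the difference of the wider set from shared peaks passed. A gene was overlapped by 896 of its 1194 peaks, against 1101 of 1350 (81.6%), a difference of -6.51 points (adjusted p = 0.000217, Fisher's exact test). Chromosome X held 16.4% of the chosen peaks and 15.7%, 15.8% and 15.2% of the other classes in the same order, with adjusted p of 0.851, 0.859 and 0.851. The peaks of a class are not independent of one another and are not replicates, so these p-values do not cover the spread between samples.

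Genes at the chosen peaks were less often on the authors' list of expressed genes of the sorted cells than genes at Sd-only peaks in open chromatin. A gene that the authors assigned was listed in their RNA table for 155 of 488 peaks (31.8%; Wilson 95% interval 27.8 to 36.0), against 400 of 868 (46.1%; 42.8 to 49.4) in open chromatin and 51.6% of all Sd peaks. The difference was -14.3 points (95% interval -19.5 to -8.94, adjusted p = 1.72e-06, Fisher's exact test). ATAC and RNA data came from cells sorted by the same reporter, so ATAC overlap and listing may not be independent, which was not tested. The shares were lower at every length, 25.6% against 42.8% up to 500 bp, 37.4% against 44.5% from 500 to 1000 bp, 28.0% against 50.5% from 1000 to 1500 bp and 34.3% against 47.6% above that. Peaks in open chromatin had more than 1 assigned gene more often, since 96.3% of the chosen peaks and 88.1% of Sd-only peaks in open chromatin had exactly 1. With such peaks alone the difference was -9.65 points (adjusted p = 0.00464, Fisher's exact test), so it was also seen where each peak had a single gene. Among the longer peaks of each list, which left 79 chosen peaks, it was -14.6 points and did not pass (adjusted p = 0.174).

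Peaks outside open chromatin with and without Nerfin-1 had listed genes at closer shares. The 155 of 488 chosen peaks (31.8%) compared with 149 of 455 shared peaks (32.7%), a difference of -0.98 points with an interval of -6.94 to 4.96 (adjusted p = 0.851, Fisher's exact test). Where only peaks covered to at least 50% counted as overlapping, the wider set of 1194 peaks differed from shared peaks by -7.34 points (adjusted p = 0.000392, Fisher's exact test). Against Nerfin-1-only peaks outside open chromatin (99 of 407, 24.3%) the chosen peaks had more listed genes, by 7.44 points (95% interval 1.51 to 13.2; adjusted p = 0.0449, Fisher's exact test). That call was near the threshold: it held with peaks of 500 to 1500 bp (11.2 points, adjusted p = 0.0103) and with 50% covered (8.57 points, adjusted p = 0.000262). It was lost with peaks of 1 assigned gene (7.67 points, adjusted p = 0.0509), with 1 kb counted as overlap (9.16 points, adjusted p = 0.175) and among the longer 50% of peaks (8.43 points, adjusted p = 0.375).

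**Figure D3:**
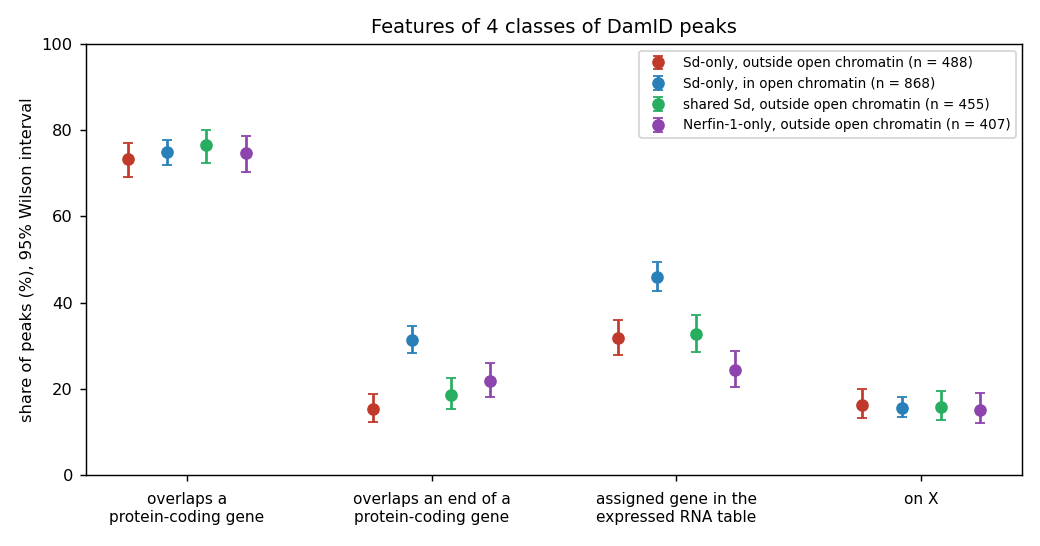
Share of peaks (percent, with Wilson 95% intervals) that overlapped a protein-coding gene, overlapped a gene end, had an assigned gene in the RNA table or lay on X, for Sd-only peaks outside open chromatin and the 3 other classes. For gene ends the share was 15.4% against 31.5% of Sd-only peaks in open chromatin, and for listed genes 31.8% against 46.1%.

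**Figure D4:**
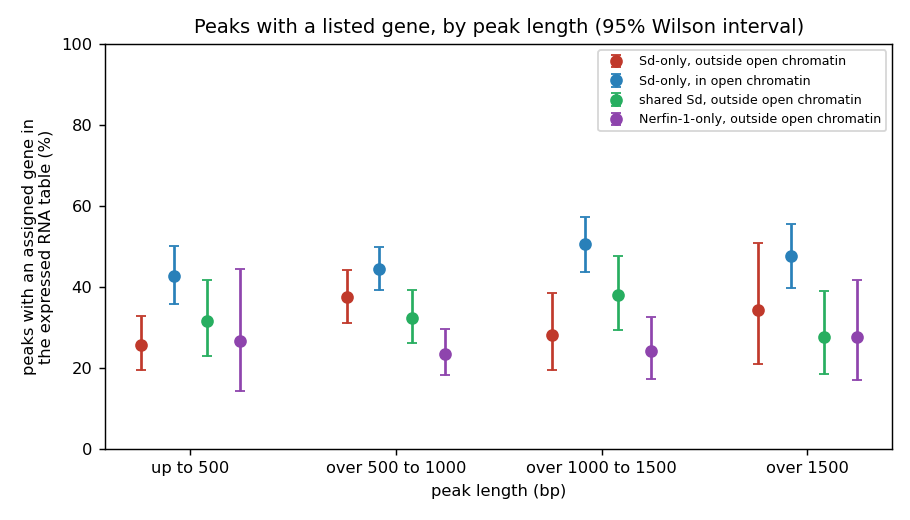
Share of peaks (percent, with Wilson 95% intervals) with an assigned gene in the RNA table, by peak length in bp, for Sd-only peaks outside open chromatin and the 3 other classes. Sd-only peaks outside open chromatin lay below those in open chromatin at every length, by the widest margin from 1000 to 1500 bp (28.0% against 50.5%).

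The authors' assignment tied the peaks to 503 genes, of which 492 had a symbol. These comprised 383 protein-coding genes, 72 long noncoding RNA genes, 10 microRNA genes, 7 small nucleolar RNA genes, 6 antisense RNA genes and 5 tRNA genes among other kinds. Long noncoding RNA genes made up 14.3% of them and 11.1% of the 4360 genes assigned to other Sd peaks. The microRNA genes were mir-14, which limits cell death, mir-92a, mir-100, mir-137, mir-252, mir-315, which can raise Wingless signalling, mir-13b-1, mir-993, mir-4946 and mir-4951. The assigned gene was not always the gene the peak lay in: of 358 peaks over a protein-coding gene, 240 (67.0%) were assigned to a gene they overlapped. For 472 of the 503 genes every assigned Sd peak was of the chosen kind, but 471 of the 503 had only 1 assigned Sd peak. For genes with a single assigned Sd peak this outcome was fixed by the choice of peaks. Of the 503 genes, 142 (28.2%) had a Nerfin-1 peak assigned elsewhere. Genes with such a Nerfin-1 peak were listed in the RNA table in 63 of 142 cases (44.4%), and those without in 91 of 361 (25.2%), given as a description.

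By position, 564 of 13922 protein-coding genes (4.05%) had a chosen peak within 1 kb. They were long, with a median of 4870 bp against 3406 bp for genes with any Sd peak and 2163 bp for all genes. For 336 of them (59.6%) every Sd peak within 1 kb was of the chosen kind, and 262 (46.5%) also had a Nerfin-1 peak within 1 kb. The RNA table listed 35.5% of all protein-coding genes. Leaving out genes whose current identifier is newer than the files, it listed 48.1% of genes with a chosen peak, 58.9% of genes with Sd peaks of other kinds alone and 36.2% of all genes.

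Homeobox genes, which encode transcription factors of cell identity, were the largest group named. Of 73 on the list, 14 had a chosen peak within 1 kb (19.2%, against 4.05% of all protein-coding genes). As a share of the genes with any Sd peak this was 14 of 39 (35.9%), against 564 of 4959 (11.4%) for all genes. Homeobox genes can be long, and length was not adjusted for. They included Antp, ap, Six4, hth, vnd, oc, Lim1, tup, C15, pros, ct and onecut, and at least 9 of the 14 were in the RNA table, against 25 of the 73 on the list, both counted by current identifiers. At Antp, the Hox gene of the thorax, a peak of 943 bp (3R, 6934725 to 6935667) lay inside the gene 323 bp from an ATAC peak and was its sole Sd peak within 1 kb. The LIM gene ap, a selector of neuron type, had a peak of 1639 bp over an end (2R, 5705862 to 5707500). The current identifier of ap is not in the files, so ap counts as not listed here. The authors assigned the peak to FBgn0000099, which matched no symbol and was listed at 651, 435 and 411 CPM in S1, S2 and S3. At vnd, which patterns the ventral neuroectoderm, a peak of 612 bp (X, 594970 to 595581) lay 3892 bp from an ATAC peak. The Otx gene oc had a peak of 819 bp (X, 8639457 to 8640275) and RNA at 87.4, 87.6 and 83.4 CPM in libraries S1, S2 and S3.

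Levels of the listed homeobox genes spanned a wide range. The gene pros, which encodes Prospero, a factor that moves neural precursors towards differentiation, had 10826, 12384 and 10038 CPM in S1, S2 and S3, with 1 chosen peak (3R, 11354909 to 11355381) among 5 Sd peaks. The TALE gene hth had 402, 437 and 394 CPM, with 1 chosen peak (3R, 10637648 to 10638190) of 2. For ct, a factor of sensory and dendrite identity, levels were 799, 552 and 473 CPM, and its single Sd peak (X, 7676843 to 7677201) was a chosen one. On chromosome 4, onecut had 875 ± 20.4 CPM (SD, n = 3). Library S1 was the highest of the 3 for ct, whereas for oc and onecut the libraries lay close together.

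Axon guidance and adhesion genes were another group, with 7 genes, against 8 on the ribosomal protein list. All 7 were in the RNA table, which listed 31 of the 34 genes on this list. They were robo1, sli, unc-5, Sema1b, Ephrin, Abl and Ten-a (20.6% of the list, or 7 of 29 with any Sd peak, 24.1%). For all protein-coding genes the shares were 4.05%, and 11.4% of those with any Sd peak. These genes can be long (291517 bp for Ten-a, 52624 bp for sli), and length was not adjusted for here or in the lists below. The receptor gene robo1 had a peak of 365 bp outside the gene (2R, 22691503 to 22691867, assigned to lncRNA:CR44764) and RNA at 406, 407 and 397 CPM in S1, S2 and S3. Its ligand gene sli had 1 chosen peak (2R, 15919212 to 15920513) of 4 and RNA at 886, 912 and 822 CPM. The Netrin receptor gene unc-5 had a single Sd peak (2R, 15366127 to 15366879, assigned to Pms2), 1925 bp from an ATAC peak, and RNA at 421, 349 and 320 CPM. Semaphorin Sema1b had RNA at 230 ± 4.32 CPM and Ephrin at 408 ± 26.0 CPM (SD, n = 3 each). The teneurin gene Ten-a, whose product matches synaptic partners, held 3 chosen peaks of 331, 1679 and 1350 bp among 8 Sd peaks on X.

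Growth genes of the Hippo pathway and the cell cycle were also among them. Of 26 Hippo pathway genes, 2 (kibra and sd) had a chosen peak (7.69%, against 4.05% of all protein-coding genes), and 19 had a Sd peak of some kind. As a share of these 19 this was 10.5%, against 11.4% of all protein-coding genes with any Sd peak. The peak at sd itself (X, 15806181 to 15807005) lay inside the gene, 123 bp from a Nerfin-1 peak. The Dam-Sd transgene carries coding sequence of sd, and whether the peak covers coding sequence was not tested. Of 16 Yorkie-Scalloped targets, 3 had a chosen peak (18.8%, or 3 of 11 with any Sd peak): CycE, E2f1 and kibra. Within CycE a shorter peak of 662 bp (2L, 15731085 to 15731746) lay 30 bp from an ATAC peak and 88 bp from a Nerfin-1 peak. Cyclin E and kibra RNA were not listed in the table. The cell cycle and growth list had 5 of 29 (17.2%, or 5 of 24 with any Sd peak), namely CycE, twe, E2f1, E2f2 and InR. RNA of E2f1 was at 443, 430 and 430 CPM in S1, S2 and S3, and that of E2f2 at 64.0, 63.1 and 64.9 CPM. The chosen peak near E2f1 (3R, 21661828 to 21662092, 265 bp) was 1 of 7 Sd peaks there.

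The remaining lists of nervous system and growth genes held at most 8 such genes each, the ribosomal protein list the most. For all protein-coding genes the share was 4.05%, and 11.4% of those with any Sd peak. Of 92 ribosomal protein genes 8 had a chosen peak (8.70%, or 8 of 47 with any Sd peak). Their RNA ran from 139 ± 8.03 CPM for RpL34a to 1646 ± 90.3 CPM for RpL3 (SD, n = 3 each) among those that could be looked up. RpS14a and RpS14b are near-identical neighbours that share 1 peak (X, 7934227 to 7935183), so their counts may be split between them. Of 13 ecdysone response genes 3 had a chosen peak (23.1%, or 3 of 9 with any Sd peak). They were the receptor gene EcR (2 of its 6 Sd peaks, each assigned to a tRNA gene), Eip75B (1275 ± 145 CPM, SD with n = 3) and Hr4. The 3 of 21 temporal factors (14.3%, or 3 of 14 with any Sd peak) were hth, Sox102F and mamo. Of 13 Notch pathway genes 1 had a chosen peak (7.69%, or 1 of 11 with any Sd peak). This was mam, the coactivator of Notch, with 1 chosen peak of 3 Sd peaks and RNA at 836 ± 110 CPM (SD, n = 3). E(spl)mgamma-HLH was the 1 of 11 genes of that complex, l(1)sc the 1 of 14 neuroblast genes, loco the 1 of 15 glial genes and Ca-alpha1D the 1 of 23 ion channel genes.

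Cuticle and chemoreceptor genes had chosen peaks at shares below the background of 4.05%, and cytochrome P450 and neuropeptide genes at shares close to it. Among genes with any Sd peak, the shares were 4 of 9 cytochrome P450 genes (44.4%) and 2 of 6 cuticle genes (33.3%). They were 2 of 16 neuropeptide and receptor genes (12.5%) and 2 of 22 chemoreceptor genes (9.09%), against 11.4% for all protein-coding genes. There were 2 of 117 cuticle genes (Cpr66D and Ccp84Ab), 2 of 179 chemoreceptor genes (Ir48c and Gr63a) and 4 of 83 cytochrome P450 genes (4.82%; Cyp4g15, Cyp6a9, Cyp6a20 and Cyp6d5). Neuropeptides and their receptors had 2 of 51 (3.92%, Dh44-R2 and ETHR). No chosen peak lay within 1 kb of 25 Osiris, 51 odorant binding, 27 gut serine protease, 115 histone, 10 nicotinic receptor, 16 pan-neuronal, 11 hemocyte, 15 muscle or 17 testis genes. For Osiris and gut serine protease genes this was fixed, since 0 of them had any Sd peak. Any Sd peak was found at 7 odorant binding, 4 histone, 2 nicotinic receptor, 11 pan-neuronal, 3 hemocyte, 8 muscle and 2 testis genes. The RNA table listed 0 of the cuticle genes, 0 of the chemoreceptor genes and 2 of the cytochrome P450 genes on these lists, and none of those with a chosen peak. Over all lists 56 of 1077 genes (5.20%) had a chosen peak.

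A few genes held several chosen peaks. By position 23 genes had at least 2, noted after the values were seen. Some of these lie at 1 locus and share the same peaks, such as Kdm4B, seq and CG17724, or CG6126, CG31287 and mtSSB. The 23 were long, with a median of 21785 bp against 2163 bp for all protein-coding genes. In the authors' assignment 2 genes had 2 (rdx and Adgf-A2) and 0 had more. CG32816 on X held 4 among 7 Sd peaks within its 154151 bp, and the authors assigned them to y, lncRNA:CR44751, lncRNA:CR44753 and l(1)sc. The gene rdx, which encodes a Cul3 adaptor that limits Hedgehog signalling, held 3 of 4 (3R, 14020947 to 14031214 in all) with RNA at 152, 150 and 141 CPM in S1, S2 and S3. Others with 2 included CycE, EcR, the tyrosine phosphatase gene Ptp61F, the collagen receptor gene Ddr, the cation channel gene Trpm and the tetraspanin gene Tsp42Ee. For Tsp42Ee, which had no Nerfin-1 peak within 1 kb, both of its Sd peaks were of the chosen kind.

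RNA levels could be described only for the listed genes. The 154 listed genes assigned to the peaks had a median of 6.94 on the log2(CPM + 1) scale, with medians of 7.01, 6.98 and 6.97 in S1, S2 and S3. The 2196 listed genes of other Sd peaks had a median of 6.87 and all 5135 listed genes one of 6.39. These medians are taken over listed genes and leave out the genes that the authors did not list.

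Among genes whose Sd peaks in the authors' assignment were all of the chosen kind, the 10 with the highest RNA were mostly stress, cytoskeletal and adhesion genes. By position within 1 kb, only 3 of 8 Sd peaks at Ten-a and 1 of 2 at chn were of the chosen kind. Hsp70Bc, cib, rhea, hfp and Abl each had 1 Sd peak by position, a chosen one. Hsp70Bc, a heat shock chaperone gene, had 4655, 2645 and 1507 CPM in S1, S2 and S3, and Hsp70Bbb had 1189, 695 and 390 CPM. Both were highest in S1 and lowest in S3, and they are near-identical copies whose counts may be split or shared. The peak at Hsp70Bc (3R, 12508465 to 12509339) lay over an end of the gene, 1887 bp from an ATAC peak. The actin-binding gene cib had 2211, 2135 and 2274 CPM and a peak of 1280 bp inside it (X, 4108108 to 4109387). The atypical cadherin gene stan, which acts in axon and dendrite growth, had 1942, 1676 and 1407 CPM. The teneurin genes Ten-m and Ten-a had 1042 ± 62.9 and 974 ± 86.4 CPM, the talin gene rhea 992 ± 42.9 CPM and the splicing regulator gene hfp 882 ± 36.6 CPM (SD, n = 3 each). Completing the set were chn, a zinc-finger repressor of neural genes (846 ± 43.7 CPM; SD, n = 3), and the tyrosine kinase gene Abl (745 ± 42.9 CPM; SD, n = 3). The peak in chn (2R, 15117901 to 15119777) lay 1285 bp from an ATAC peak and 680 bp from a Nerfin-1 peak, while that in Abl (3L, 16645966 to 16646460) lay 18 bp from an ATAC peak.

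**Figure D5:**
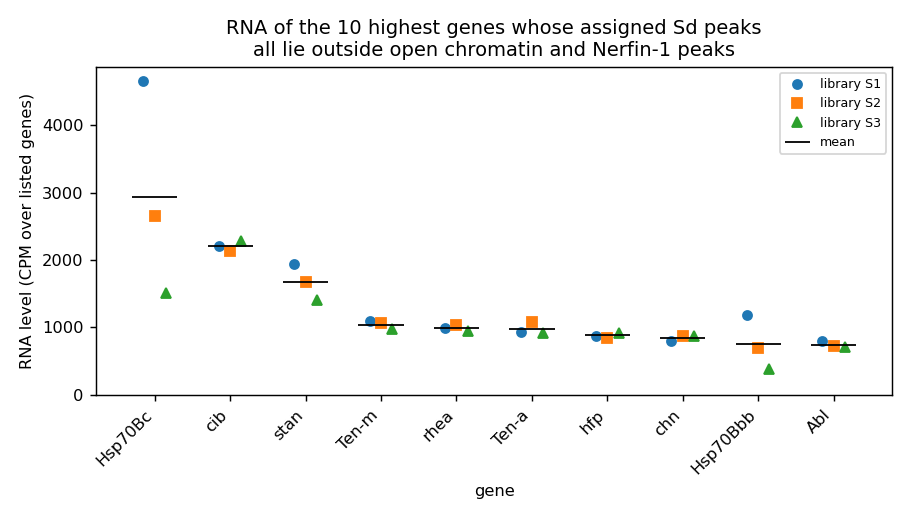
RNA level (CPM over listed genes, linear axis, with the mean as a line) in libraries S1, S2 and S3 for the 10 highest genes whose assigned Sd peaks were all Sd-only peaks outside open chromatin. The libraries lay close together for cib (2135 to 2274 CPM) and far apart for Hsp70Bc (1507 to 4655 CPM).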

How the data were processed

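DamID, ATAC-seq and RNA-seq were analysed from the authors' deposited files. Per the submitters' processing notes the build was dm6 and the tools were Bowtie2, MACS2, Subread, featureCounts, bedtools and edgeR, with no role or version. The sources used here do not say how replicates or Dam-only controls went into the peak calls. The deposited peak lists give positions (1 list per group), and the deposited RNA table gives raw counts per gene for 5135 genes that the authors kept as expressed (lowest count 99). No column was left out (0). The Sd list pairs peaks with genes; 97.96% of its 4863 gene IDs matched a symbol. Gene positions came from the RefSeq table of assembly Release 6 plus ISO1 MT, with no strand or exons; 298 genes carry IDs newer than the files.

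Overlap meant at least 1 bp. Shares of peaks were compared by two-sided Fisher's exact test with Benjamini-Hochberg adjustment over 12 tests (4 features, 3 classes; threshold 0.05), with Wilson and Newcombe 95% intervals, which cover counting error alone (scipy 1.17.1, statsmodels 0.14.6). The counts were scaled to 1000000 listed counts (CPM), and log2 levels used a pseudocount of 1. RNA has a single group, so no differential test was run; its SD is that between pools, and S1 to S3 could not be tied to replicate numbers. Alternatives used edgeR 4.0.16 and DESeq2 1.42.0 scaling, other overlap and length rules, and gene windows of 5 kb. Scripts were tested on simulated data. Genes named are those of the 15 longest peaks, of the 5 farthest from ATAC peaks, at the edges of the rule, the 10 of highest CPM, and up to 6 per list; further ones were chosen after their values were seen. The peaks, gene lists and tests were chosen with earlier results of these data known. Some results for single genes are not reported here.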

Additional observations from a re-analysis of the deposited data

How the results depend on the processing

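Values are percentage points, chosen peaks minus the other class. With peaks of 500 to 1500 bp, gene overlap turned to 0.17 against Sd-only peaks in open chromatin and 1.72 against Nerfin-1-only peaks outside it, listed genes to 0.46 against shared peaks outside it, and gene ends against Nerfin-1-only peaks to -3.01. With at least 50% covered, 1194 peaks counted as Sd-only outside open chromatin, among them peaks that touched another list. Against shared peaks their gene overlap was -6.51, gene ends -12.8 and listed genes -7.34, now past the threshold. Gene ends against Nerfin-1-only peaks were -3.17. The share on X was -3.50 against Sd-only peaks in open chromatin and -1.36 against shared peaks. With 1 kb counted as overlap (176 peaks), gene ends were -8.06, 0.090 and -3.77 against Sd-only peaks in open chromatin, shared and Nerfin-1-only peaks, and listed genes were 9.16 against Nerfin-1-only peaks. Among the longer 50% (79 peaks), gene ends against Nerfin-1-only peaks were -11.0, and listed genes -14.6, 0.58 and 8.43 against Sd-only peaks in open chromatin, shared and Nerfin-1-only peaks. With 1 assigned gene, listed genes against Nerfin-1-only peaks were 7.67, and with protein-coding genes alone they were 0.077 against shared peaks; both alternatives were chosen after seeing the data. Fewer peaks are tested at 1 kb and among the longer 50%; otherwise the cause was not tested. Fewer listed genes at the chosen peaks than at Sd-only peaks in open chromatin were found under every alternative run, and the adjusted p exceeded 0.05 only among the longer 50% (0.174). Genes with a chosen peak within 5 kb numbered 1161, and 99 on the lists; by the authors' assignment 8 homeobox, 1 ribosomal protein and 0 ecdysone response genes had one. The median RNA level was 6.95 to 6.97 with a library left out. The TEAD motif search was not run, since no dm6 sequence was used here. No paired analysis was possible because the peak lists carry no replicate values and the RNA has a single group.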
